A study of Saccharomyces cerevisiae with 12 samples.

Results

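The comparison described here set the 6 arrays of yeast lacking one of the paralogs Rsc1 or Rsc2, taken as one group, against the 3 arrays of wild type yeast. It used 9 of the 12 arrays of the series, chosen by their strain labels, and asked which levels of acetylated histone H4 (AcH4) moved the same way in both deletions. The deletion arrays were 3 biological repeats of rsc1Δ and 3 of rsc2Δ, and the wild type arrays were 3 biological repeats of BY4741. BY4741 is a laboratory strain of Saccharomyces cerevisiae of mating type a, and all cultures were grown in rich medium (YPD). For the deletion strains the labels give only the deleted gene, and whether a strain was 1 isolate or several is not given in the sources used here. The remaining 3 arrays, of rco1Δ, lack a subunit of the Rpd3S deacetylase complex and took no part in the main comparison. They served to rank probes by AcH4 and entered 1 alternative fit.

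RSC is an essential remodeling complex that uses ATP to slide or evict nucleosomes, and it keeps the region in front of active genes free of them. It occurs in forms that hold either Rsc1 or Rsc2, and each of these paralogs carries a pair of bromodomains, the modules that bind acetylated lysine. AcH4 is enriched at the promoters and 5′ ends of transcribed genes and is depleted in silent chromatin, which in yeast covers the chromosome ends and the silent mating type loci of chromosome 3.

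Chromatin was precipitated with an antibody to acetylated H4. Per the paper's methods, the precipitated DNA (IP) and the input DNA were each amplified linearly into RNA. The amplified RNA was labeled (IP with Cy5 dye, input with Cy3 dye), and both were hybridized together. Every value is log2 of IP over input with the median of its array set to 0, so 0 is the middle of an array and not an absence of AcH4. No array of the series measured total histone. A lower AcH4 value can therefore hold fewer nucleosomes, less acetylation per nucleosome or both, and which of these applied was not tested. The array held 41480 nuclear probes with a median length of 60 bases and a median distance of 257 bases between starts, at positions of the sacCer1 assembly. No gene annotation of that assembly was used, so positions are given without gene names. Between 82.3% and 98.9% of the nuclear probes were well above background in the IP channel of the 9 arrays and between 81.1% and 99.8% in the input channel, and no spot was saturated. How closely a group mean is known is limited by its 6 or 3 arrays, and the group of 6 holds 3 repeats of each of 2 deletions. The SE and p given here measure spread between arrays, from which spread between isolates of a genotype cannot be told. Input signal was lost over a stretch on the chromosome of each deleted gene. Over the longest stretch of lowered input on chromosome 7, the chromosome of RSC1 (YGR056W), the rsc1Δ arrays had a mean log2 input of -6.69 to -2.91 against -0.16 to 0.25 on the others. On chromosome 12, that of RSC2 (YLR357W), the rsc2Δ arrays had -4.95 to -4.24 against -0.20 to 0.04. The stretches were found by their lowered input, so only the chromosome was matched to the gene. The first scan held 2 deletion and 2 wild type arrays, and the second slide 2 deletion arrays and 1 wild type array, so differences within each could be given beside the pooled ones. Wild type replicate 3 and rsc1Δ replicate 2 carried the same slide and position identifier in their headers, with different scans. Wild type replicate 1 likewise shared its identifier with rco1Δ replicate 2. So did rsc1Δ replicate 3 with rco1Δ replicate 3, and rsc2Δ replicate 2 with rco1Δ replicate 1. Which arrays shared a slide is therefore uncertain, also where the slide was used as a block.

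At the level of single probes, the change shared by both deletions was a lower AcH4 ratio on chromosome 3. In limma, 3 of 41480 probes passed an adjusted p of 0.05 (Benjamini-Hochberg), which is 0.00723% of those tested, and all 3 were lower in the deletions and lay on chromosome 3. At an unadjusted p under 0.05 there were 2067 higher (4.98%) and 2146 lower probes (5.17%). The probe at chr3:203297-203355 had -2.11, -1.77 and -2.50 in rsc1Δ and -1.92, -2.31 and -2.13 in rsc2Δ, against 0.17, 0.22 and 0.29 in wild type. All 6 deletion arrays lay at least as low as -1.77, whereas wild type sat just above the array median. The difference was -2.35 ± 0.23 (SE; limma adjusted p = 0.00118). The neighboring probe at chr3:202990-203048 had -1.60, -1.52 and -1.24 in rsc1Δ and -0.36, -1.03 and -0.48 in rsc2Δ, against 1.44, 1.34 and 1.34 in wild type. Here wild type was clearly enriched in AcH4 and no deletion array reached the median of its array. The difference was -2.41 ± 0.29 (SE; limma adjusted p = 0.01). The last called probe, chr3:310548-310607, had -1.26, -1.92 and -1.39 in rsc1Δ and -1.41, -1.11 and -1.34 in rsc2Δ, against 0.26, 0.29 and 0.20 in wild type. The groups did not overlap, and the difference was -1.65 ± 0.23 (SE; limma adjusted p = 0.0416). It was well above background in the IP channel on 5 of 6 deletion arrays and 3 of 3 wild type arrays, so the rule for naming probes left it out, and it is named because only 3 were called. It passed in 1 of the 9 fits that left out 1 array and not with the replicate number or the slide as a block (limma adjusted p = 0.16 and 0.338), and its difference was -0.64 with normexp and -0.88 in the deposited values (limma adjusted p = 1 for both). None of the 3 passed with plain background subtraction (limma; smallest adjusted p = 0.0568), with loess, or with the scan or its day as a block, and only the probe starting at 203297 passed without each of the 3 wild type arrays in turn.

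The called pair on chromosome 3 stood in the middle of the longest stretch of the genome at which the groups did not overlap. From 202032 to 203979, 9 neighboring probes were each lower on all 6 deletion arrays than on all 3 wild type arrays, with a mean of -2.10 in the deletions and -0.40 in wild type. Over all 40378 probes with a value on every array, 1091 (2.7%) lay below wild type on all 6 deletion arrays and 988 (2.45%) above. Runs of at least 3 such probes numbered 32 downward and 18 upward, those of at least 5 numbered 3 downward and 0 upward, and the longest upward run held 4 probes. Within the stretch the difference was larger at the 3 central probes, where it was -2.24, -2.41 and -2.35, than at the first (-1.42) and the last (-1.30). Outside it the difference shrank over a few probes. On one side it was -0.38 at the probe starting at 201595 and 0.04 at 201332, and on the other -0.51, -0.58 and -0.33 at the probes starting at 204105, 204319 and 204589 and 0.03 at 204881. The array held no probe between 198689 and 201133. At the 3 central probes the log2 IP signal differed by -2.24, -2.27 and -2.24, and the log2 input signal by -0.02, 0.13 and 0.09. Input differed most at the first probe of the stretch, by 0.62, where IP differed by -0.78.

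**Figure D1:**
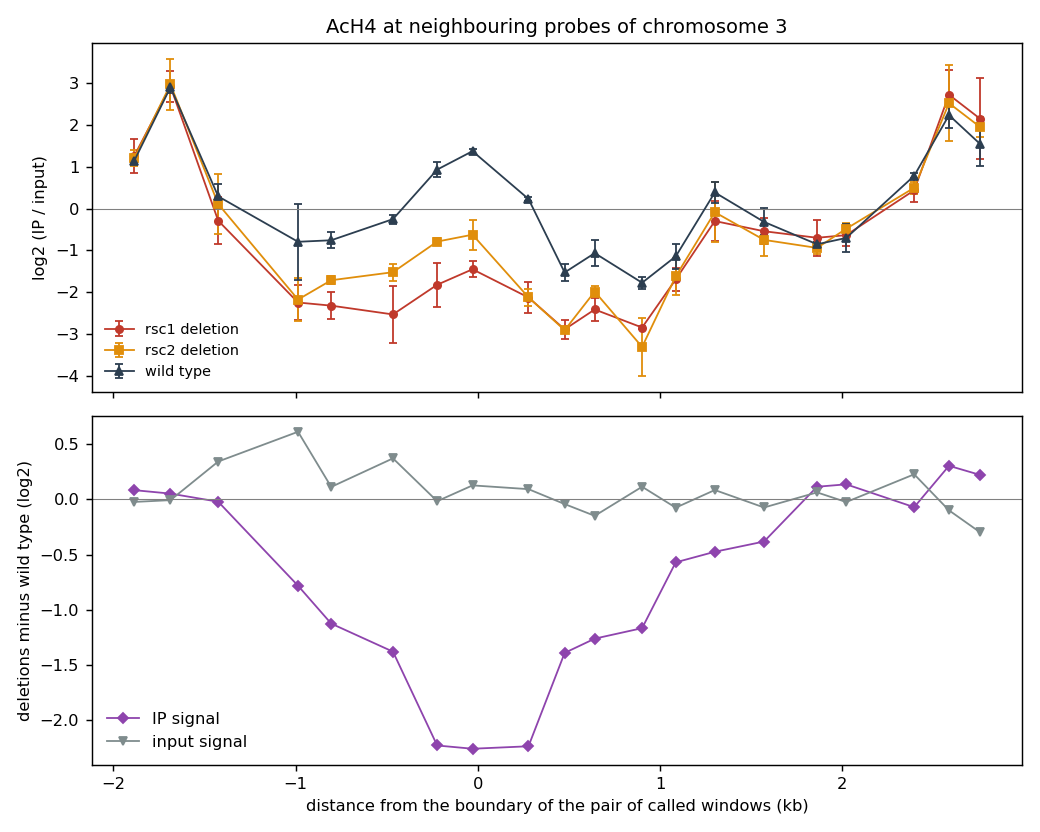
Upper panel, mean log2 IP over input ± SD (n = 3 arrays per strain) of each probe on chromosome 3, against the distance in kb from the boundary of the pair of called windows. Lower panel, mean of the 6 deletion arrays minus mean of the 3 wild type arrays for the IP and the input signal (log2). Both deletions lie below wild type over 9 neighboring probes and near it farther out, and the IP differences are largest at the center, where input differs by -0.02 to 0.13.

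Because neighboring probes share sonicated fragments, the probes were also averaged in windows of 1 kb with at least 3 probes, a step chosen after the data had been seen together with windows of 2, 5, 10 and 20 kb. In limma, 10 of 10424 windows passed an adjusted p of 0.05 (0.0959%), of which 9 were lower (0.0863%) and 1 was higher (0.00959%) in the deletions. At an unadjusted p under 0.05 there were 896 higher (8.6%) and 805 lower windows (7.72%). In all 10, the 6 deletion arrays lay on one side of the 3 wild type arrays, which held for 506 windows upward (4.85%) and 431 downward (4.13%) overall. Because the groups did not overlap, the direction within the first scan and within the second slide had to be the same at all 10, and it is no separate check. The IP signal alone also passed at all 10 (limma, adjusted over 10424 windows), whereas input differed by -0.18 to 0.24 and passed in 0 windows of the genome, with 137 (1.31%) at an unadjusted p under 0.05. The windows are called A to J here, by the size of the difference. Their number depended on single arrays: it was 1 without wild type replicate 1, 4 without wild type replicate 2, 4 without wild type replicate 3 and 211 without rsc1Δ replicate 1. With plain background subtraction, with loess after normexp or with the scan as a block 0 windows passed, and with normexp alone 2 (A and B). With all arrays scaled to one spread, 22 windows passed, 10 higher and 12 lower, so the excess of falls was not seen under that scaling. The 6 deletion arrays are 3 of each of 2 strains, and with strain as a random block windows A, B, D, E and F passed, and C, G, H, I and J had adjusted p between 0.0563 and 0.0875 (limma). With the replicate number as a block the same 5 passed, with the slide B, D and E, with the day of the scan D alone, and in the deposited normalized values A, B and E.

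Of the 10 windows, 5 lay on chromosome 3, which held 2.61% of the windows tested. Window B, chr3:202032-203048, and window D, chr3:203297-203979, covered the stretch described above. Window D had -2.45, -2.51 and -2.75 in rsc1Δ and -2.58, -2.44 and -2.73 in rsc2Δ, against -1.14, -0.86 and -1.10 in wild type. The deletions were nearly alike here, with rsc1Δ minus rsc2Δ at 0.01 (limma adjusted p = 0.977), and both lay 1.54 below wild type on the log2 scale, a difference of -1.54 ± 0.14 (SE; limma adjusted p = 0.000214). It was the only one of the 10 windows that passed in each fit that left out 1 array, with the largest adjusted p at 0.00663. It was not called in the deposited normalized values, where the difference was -0.78 (limma adjusted p = 0.128), or with normexp, where it was -0.65 (limma adjusted p = 1), whereas windows A, B and E were called in the deposited values. Window B had -2.49, -1.98 and -1.76 in rsc1Δ and -1.47, -1.45 and -1.18 in rsc2Δ, against 0.32, 0.00 and -0.03 in wild type. Both deletions were lower, and rsc1Δ lay below rsc2Δ by 0.71 (limma adjusted p = 0.0376). Window B differed from wild type by -1.82 ± 0.23 (SE; limma adjusted p = 0.00358).

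The other 3 windows of chromosome 3 lay within 20 kb of its last probe. Window E, chr3:310180-310998, had -0.84, -0.91 and -0.16 in rsc1Δ and -1.19, -0.67 and -0.91 in rsc2Δ, against 0.76, 0.63 and 0.66 in wild type. The deletions were thus below the array median where wild type was above it, by -1.47 ± 0.19 (SE; limma adjusted p = 0.00358). In the IP channel, 16 of 18 deletion spots and 9 of 9 wild type spots of window E were well above background. Of its 3 probes, 0 were so in both channels on all 9 arrays. Window I, chr3:302030-302899, had -1.23 to -0.95 in the 6 deletion arrays and -0.38 to -0.04 in wild type, and window J, chr3:298030-299047, had 0.56 to 0.76 in the deletions and 1.37 to 1.63 in wild type. Window J thus stayed above the array median on all 9 arrays, at a lower level in the deletions. The differences were -0.87 ± 0.14 for window I and -0.84 ± 0.13 for window J (SE; limma adjusted p = 0.02 for both). Both were called in the fit restricted to probes well above background on all 9 arrays, and neither with the replicate number, scan, day of the scan or slide as a block. The 18 windows of chromosome 3 from 290 kb to its end, an interval chosen after these values were seen and therefore not tested, had a median difference of -0.47 against 0.03 over all windows. In 14 of them the deletions had the lower mean, in 7 all 6 deletion arrays lay below wild type, and 8 were lower and 0 higher at an unadjusted p under 0.05. Over all windows, 45.7% had the lower mean in the deletions, 4.13% lay below wild type on all 6 deletion arrays, and 7.72% were lower and 8.6% higher at that p. The outermost window, chr3:314135-314925, had -3.72 to -2.56 in the deletions and -2.41 to -1.67 in wild type, and its adjusted p was 0.07 (limma).

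**Figure D2:**
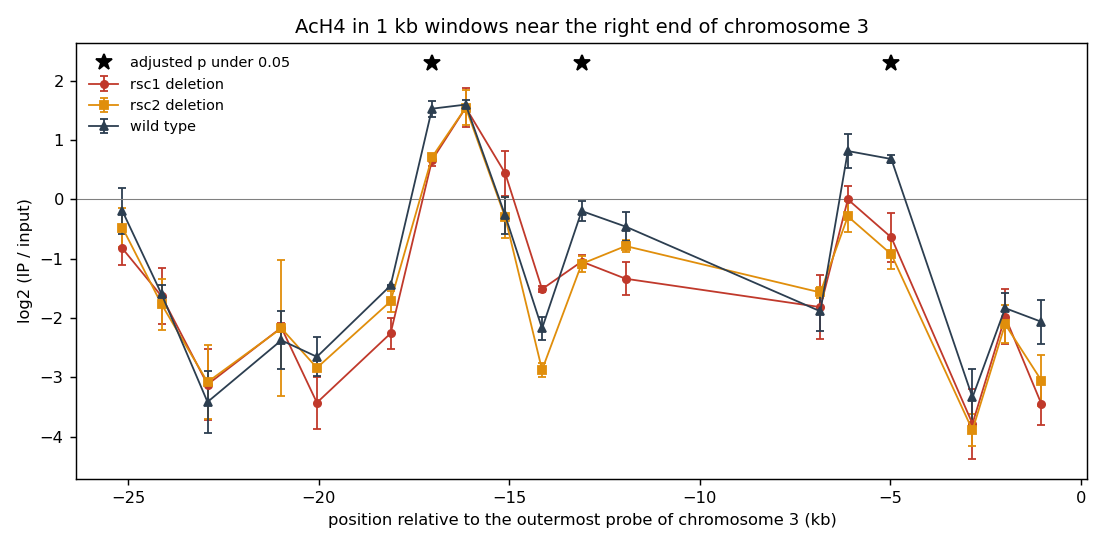
Mean log2 IP over input ± SD (n = 3 arrays per strain) in 1 kb windows, against the position in kb relative to the outermost probe of chromosome 3, with stars at the 3 windows of adjusted p under 0.05 (limma). The strains share the pattern of peaks and troughs, and both deletions lie below wild type at the starred windows.

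The remaining windows lay on chromosomes 4, 7 and 10. Window A, chr7:681395-681963, had the largest difference, with -1.55, -1.94 and -1.82 in rsc1Δ and -2.84, -2.50 and -2.89 in rsc2Δ, against 0.09, -0.20 and -0.11 in wild type. AcH4 was thus lower in both deletions and lower in rsc2Δ than in rsc1Δ by 0.98 (limma adjusted p = 0.00264). The difference from wild type was -2.18 ± 0.27 (SE; limma adjusted p = 0.0033), and a run of 4 neighboring probes from 680956 to 681963 did not overlap. Window A was not called with the slide or the day of the scan as a block (limma adjusted p = 0.0627 and 0.109). In the IP channel, 12 of 18 deletion spots and 9 of 9 wild type spots of this window were well above background.

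Windows C and G were neighbors on chromosome 10. Window C, chr10:564180-564767, had -3.02, -3.14 and -3.53 in rsc1Δ and -4.23, -4.02 and -3.82 in rsc2Δ, against -2.39, -1.59 and -2.16 in wild type. This was a site of little AcH4 in rsc1Δ, rsc2Δ and wild type, with 11 of 18 deletion and 9 of 9 wild type spots well above background in the IP channel, and rsc2Δ lay below rsc1Δ by 0.79 (limma adjusted p = 0.033). Window G, chr10:565054-566023, had -2.58 to -1.84 in the deletions and -1.13 to -0.87 in wild type. Of its spots in the IP channel, 21 of 30 in the deletions and 15 of 15 in wild type were well above background. The differences were -1.58 ± 0.26 for window C and -1.09 ± 0.17 for window G (SE; limma adjusted p = 0.02 for both). Window C lost its call when all arrays were scaled to one spread (limma adjusted p = 0.0718), while window G kept it (limma adjusted p = 0.0401). Window C was not called with the replicate number, slide or day of the scan as a block (limma adjusted p = 0.0707, 0.234 and 0.494) or in the deposited values, at -0.49 (limma adjusted p = 0.918). Window G was not called with the replicate number, slide or day of the scan as a block (limma adjusted p = 0.0707, 0.0802 and 0.217) or in the deposited values, at -0.47 (limma adjusted p = 0.765).

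On chromosome 4, window H was lower and window F higher in the deletions, the only rise among the 10 windows. Window H, chr4:180143-180876, had -1.79, -1.31 and -1.41 in rsc1Δ and -1.79, -1.60 and -1.50 in rsc2Δ, against -0.49, -0.43 and -0.73 in wild type. It was lower in the deletions by -1.02 ± 0.16 (SE; limma adjusted p = 0.0166), with no called difference between the paralogs, and was not called with the replicate number (adjusted p = 0.0658) or the slide (adjusted p = 0.0851) as a block. Window F, chr4:1486027-1486948, had -0.93, -1.22 and -0.59 in rsc1Δ and -1.03, -1.39 and -0.99 in rsc2Δ, against -2.27, -2.14 and -2.21 in wild type. The region was poor in AcH4 in wild type and less so in both deletions, by 1.18 ± 0.17 (SE; limma adjusted p = 0.00909). It was not called with the slide or the day of the scan as a block (limma adjusted p = 0.0755 and 0.305) or in the deposited values, at 0.95 (limma adjusted p = 0.179). A run of 4 neighboring probes from 1486352 to 1487149 lay above wild type on all 6 deletion arrays, with means of -0.61 in the deletions and -1.88 in wild type. In the IP channel, 23 of 24 deletion spots and 10 of 12 wild type spots of window F were well above background.

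**Figure D3:**
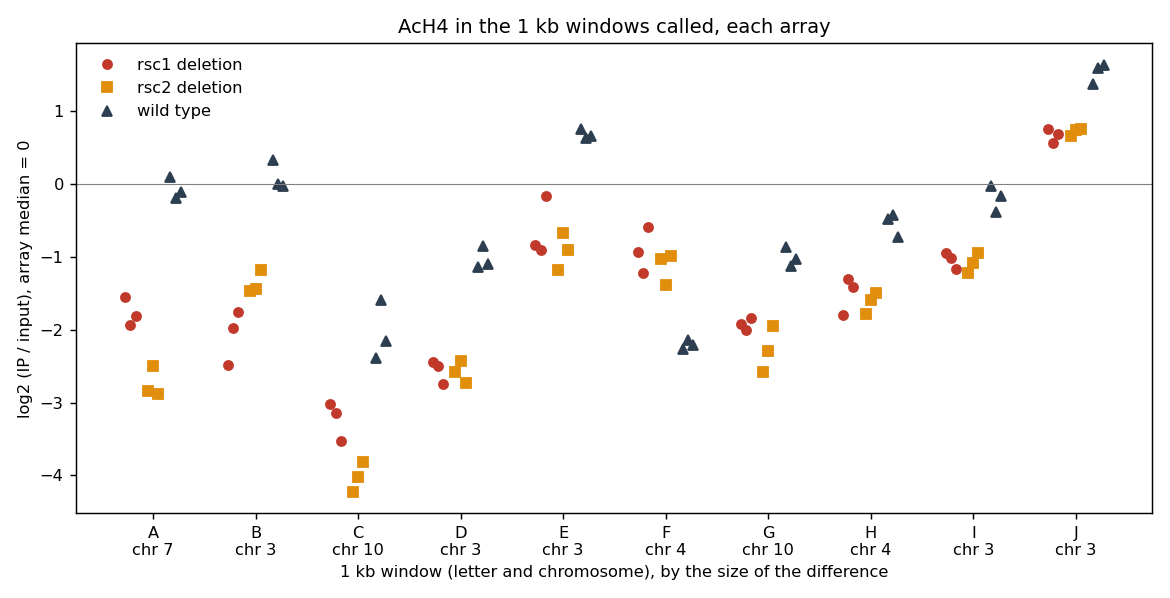
Log2 IP over input of each array (array median at 0) in the 10 called windows, A to J, by the size of the difference of deletions minus wild type, with the chromosome under each letter. In every window the 6 deletion values lie on one side of the 3 wild type values, above them only in window F, and rsc1Δ and rsc2Δ are set apart in windows A, B and C.

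A further 5 windows passed in the IP signal but not in the ratio. The IP signal was called in 15 windows, 12 lower (0.115%) and 3 higher (0.0288%) in the deletions. The 5 that the ratio did not call had a ratio adjusted p between 0.0663 and 0.115. They included chr3:309056-309842, next to window E, where IP differed by -1.08 and the ratio by -0.96, and chr12:112362-112837, where IP differed by 1.38 and the ratio by 1.40.

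The paralog deletions also differed from each other. In a fit with rsc1Δ, rsc2Δ and wild type as 3 groups, rsc1Δ against rsc2Δ gave 488 called probes (1.18%) and 738 called windows (7.08%). When both deletions formed one group, that difference counted as spread within the group. With each deletion given its own mean, the contrast of their average against wild type called 279 windows (2.68%), of which 169 were lower and 110 higher in the deletions, and all 10 windows A to J were among them. This fit was planned for single probes, where it called 12, all lower, and was applied to windows after the data had been seen. It tests the average of the deletions, so a large change in only one of them can pass. Of the 169 lower windows, all 6 deletion arrays lay below wild type in 131, and 104 of these had no called difference between the paralogs. Of the 110 higher windows, all 6 lay above wild type in 76, and 69 of these had no called difference between the paralogs. The median difference was -0.73 in the lower and 0.69 in the higher windows. The lower windows had a median of -0.78 in wild type and the higher ones 0.01, against 0.07 over all windows. Chromosome 3 held 15 of the lower and 0 of the higher windows, and of the 279 windows 12.2% lay within 20 kb of an outermost probe, against 4.08% of all windows tested.

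Windows named from this fit were chosen after their values were seen. The largest of the further falls, chr16:941157-941896 near the end of its chromosome, had -2.35, -2.77 and -2.49 in rsc1Δ and -0.85, -1.22 and -0.70 in rsc2Δ, against -0.17, 0.18 and -0.19 in wild type. Every deletion array was below wild type, and rsc1Δ lay 1.61 below rsc2Δ on the log2 scale. The largest of the further rises, chr12:112362-112837, had -1.01, -0.74 and -0.69 in rsc1Δ and 0.16, 0.35 and 0.15 in rsc2Δ, against -1.64, -1.88 and -1.57 in wild type. The order of strains was thus rsc2Δ, rsc1Δ and wild type from high to low, with no overlap between deletions and wild type. At chr2:598215-598801 the contrast also passed, but rsc1Δ had 1.26 to 1.78 and rsc2Δ -0.69 to 0.03 against -0.73 to -0.53 in wild type, so rsc1Δ alone lay apart from wild type and the rsc2Δ arrays overlapped with it. A fall of like size in both deletions was seen at chr5:524119-524697, with -2.36 to -1.41 in rsc1Δ and -2.75 to -1.95 in rsc2Δ against -0.95 to -0.73 in wild type.

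Beyond single loci, the whole distribution of AcH4 ratios was wider in the deletions. Its width, the median absolute deviation of the nuclear probes of an array, was 1.24, 1.28 and 1.29 in rsc1Δ and 1.29, 1.23 and 1.25 in rsc2Δ, against 1.08, 1.13 and 1.14 in wild type (log2). All 6 deletion arrays were wider than all 3 wild type arrays. The means were 1.26 ± 0.03 in the deletions and 1.12 ± 0.03 in wild type (SD, n = 6 and 3), and the two-sided exact permutation test gave p = 0.0238, the smallest that its 84 splits allow. The IP signal alone was also wider, with 1.48 ± 0.07 in the deletions and 1.35 ± 0.02 in wild type (SD, n = 6 and 3; exact permutation p = 0.0238). The width of the input signal was 0.65 ± 0.10 in the deletions and 0.60 ± 0.02 in wild type (SD, n = 6 and 3; exact permutation p = 0.69). Adjusted over these 3 measures, the ratio and the IP signal had p = 0.0357 (exact permutation test). The ratio was wider by 0.16 within the first scan and by 0.12 within the second slide. Because the widths of the groups did not overlap, both directions had to be the same, and they are no separate check. The call was lost under other processing: the difference was 0.097 with plain subtraction of the background (exact permutation p = 0.548), 0.058 with normexp (exact permutation p = 0.69), -0.0064 with loess after normexp (exact permutation p = 0.905) and 0.00047 in the deposited normalized values (exact permutation p = 1).

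**Figure D4:**
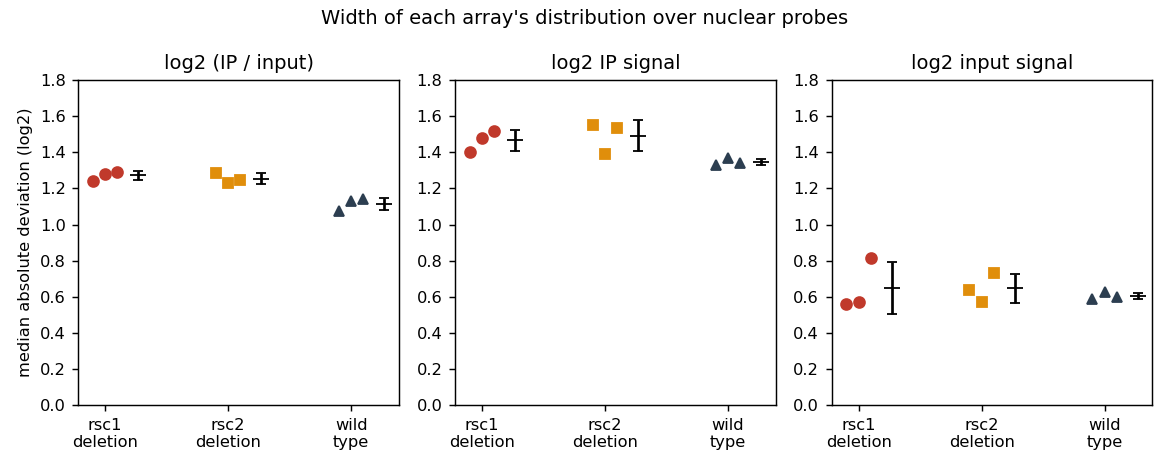
Median absolute deviation (log2) over the nuclear probes of each array, for the ratio, the IP signal and the input signal, with points for arrays and bars for mean ± SD (n = 3 per strain). The 6 deletion arrays lie above the 3 wild type arrays for the ratio and the IP signal, and the strains overlap for the input signal.

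To find where in the range of AcH4 the wider spread lay, probes were put in 10 classes by their mean in rco1Δ, whose arrays took no part in the comparison. The paper reports raised AcH4 across many gene bodies in rco1Δ, so the class of a probe can differ from its rank in wild type. Class means in wild type still rose from -1.85 in the lowest to 1.67 in the highest class, but single probes within a class can lie elsewhere. In the class with the highest AcH4 in rco1Δ (4033 probes), the deletion arrays had 1.63, 2.08 and 1.81 in rsc1Δ and 2.11, 1.66 and 1.90 in rsc2Δ, against 1.68, 1.67 and 1.66 in wild type. Wild type arrays were nearly identical here, while the deletion arrays ran from just below them to 2.11, so the groups overlapped. The means were 1.87 ± 0.20 in the deletions and 1.67 ± 0.01 in wild type (SD, n = 6 and 3; exact permutation p = 0.214). In the class with the lowest AcH4 in rco1Δ (4032 probes), the means were -1.81 ± 0.05 in the deletions and -1.85 ± 0.12 in wild type (SD, n = 6 and 3; exact permutation p = 0.524). In 0 of the 10 classes did the groups separate. Only class 3, with a difference of -0.07, had an exact permutation p under 0.05 (p = 0.0476), and its adjusted p, 0.34, was the smallest. With all arrays scaled to one spread, the lowest class was the only one that separated, at -1.87 to -1.66 in the deletions and -2.07 to -1.93 in wild type (exact permutation p = 0.0238, adjusted p = 0.238). When the classes were instead drawn from the mean of the 9 arrays compared, all 10 classes passed. The differences were -0.23 in the lowest and 0.39 in the highest class (exact permutation test, adjusted p = 0.0476 for both). That ranking uses the compared values, and 6 of its 9 arrays are the wider deletion arrays. These calls are therefore no separate check on the width.

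**Figure D5:**
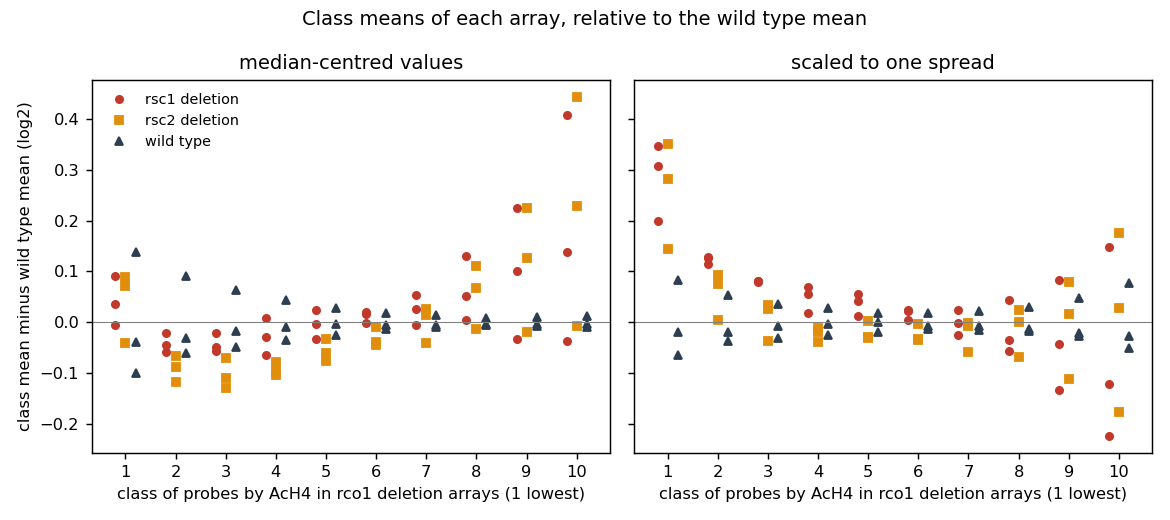
Mean log2 ratio of each array in 10 classes of probes, minus the wild type mean of the class, with probes ranked by AcH4 in rco1Δ (class 1 lowest, class 10 highest). With median-centered values (left) the deletion arrays fan out in the high classes around and above the closely grouped wild type arrays, and with one spread (right) only class 1 separates.

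Whole chromosomes did not differ beyond the spread between arrays. The median log2 ratio of the 16 chromosomes differed by -0.05 to 0.03 between deletions and wild type, and chromosome 12, at -0.13 ± 0.01 in the deletions and -0.15 ± 0.01 in wild type (SD, n = 6 and 3), was the only one of 18 regions with an exact permutation p under 0.05 (p = 0.0476, adjusted p = 0.643). The medians of the 1786 probes within 20 kb of an outermost probe were -0.32 ± 0.09 in the deletions and -0.27 ± 0.01 in wild type (SD, n = 6 and 3; exact permutation p = 0.452), with rsc1Δ at -0.12 and rsc2Δ at 0.04 relative to wild type. In the outermost 5 kb, the windows averaged -1.09 ± 0.15 in the deletions and -0.98 ± 0.12 in wild type (SD, n = 6 and 3; exact permutation p = 0.333). The next zones ran the other way, with differences of 0.07 from 5 to 10 kb and 0.05 from 10 to 20 kb (exact permutation p = 0.0714 for both, adjusted p = 0.179 over 5 zones). Mitochondrial DNA, which carries no histones, had -6.08 ± 0.81 in the deletions and -6.41 ± 0.82 in wild type (SD, n = 6 and 3; exact permutation p = 0.619), and for 195 of its 295 probes none of the 9 arrays gave an IP signal well above background.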

How the data were processed

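RNA amplified from AcH4 ChIP DNA and from input DNA was hybridized to 2-color tiling arrays. The deposited files held, for every array, spot signals as intensity values on a linear scale with log10 ratios that the scanner software had computed per the file headers, and a table of log2 ratios normalized by the authors. Feature Extraction 10.5.1.1 gave background-subtracted, dye-corrected processed signals, and per the paper's methods the authors then normalized by the median within an array and by Aquantile between them (limma). Here log2 of processed Cy5 over Cy3 signal was centered on each array's median over the 41775 non-control probes, and spots flagged as outliers were left out. Deletion arrays (n = 6) and wild type arrays (n = 3) were compared in limma 3.58.1 under R 4.3.3 (lmFit, eBayes), with Benjamini-Hochberg adjustment over 41480 nuclear probes and a threshold of 0.05, after tests on simulated data. For 1 value per array, two-sided exact permutation tests were run.

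Named probes were to be the 10 largest rises and falls among called probes that were non-overlapping between groups and exceeded background clearly in IP and input on every one of the 9 arrays, and the 5 longest runs of called probes each way. There were 0 runs of at least 3 called probes. The comparison and its lists were chosen with earlier results of these data known. The windows, with 38398 probes, were added after seeing the data, and so were the day and slide blocks. Planned gene lists were not run, since no gene annotation of sacCer1 was used here. Alternatives were other background corrections (on median spot signals, since mean spot signals were not used), normexp with an offset of 50, loess, Aquantile, one spread, the deposited table, a filter on dim probes, 3 or 4 groups, blocks, and each array left out. Plots were drawn with matplotlib 3.10.9.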

Additional observations from a re-analysis of the deposited data

Results flagged for a closer look

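In 3 of the 10 called windows the paralog deletions differed from each other, by a limma contrast of rsc1Δ minus rsc2Δ adjusted over all windows. The difference was 0.98 in window A on chromosome 7 (limma adjusted p = 0.00264), -0.71 in window B on chromosome 3 (limma adjusted p = 0.0376) and 0.79 in window C on chromosome 10 (limma adjusted p = 0.033). All 3 arrays of rsc2Δ were thus the lowest in windows A and C and all 3 of rsc1Δ in window B, and in each window both deletions lay below wild type. Over all windows this contrast called 7.08%.

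At the called probe chr3:310548-310607, rsc1Δ replicate 2 had -1.92, farther from the other 5 deletion arrays, at -1.41 to -1.11, than the spread of 6 values allows at the 95% level of Dixon's test. It was the only such case among 26 sets of 6 values examined, and chance gives about 1 in 20.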

How the results depend on the processing

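Against 3 called probes and 10 called windows, plain background subtraction gave 0 and 0, normexp 2 and 2, loess after normexp 0 and 0, one spread 4 and 22 (10 higher and 12 lower windows), the deposited normalized values 1 and 3, and the filter on dim probes 7 and 5. With that filter, 2 of the 7 probes and 3 of the 5 windows (B, I and J) were among those named. Windows A and C to H kept fewer than 3 probes under it and could not be tested. The 3-group fit gave 12 and 279, the 4-group fit on 12 arrays 11 and 154, the scan as a block 0 and 0, the day of the scan as a block 0 and 1, the slide as a block 1 and 3, strain as a random block 3 and 5, and an adjusted p under 0.01 gave 1 and 5. With the replicate number as a block, 2 probes and 5 windows were called. Deviations of same-numbered arrays correlated between -0.30 and 0.24, with 1 of 9 pairs above 0.1, so the numbers were not taken to pair the arrays. Aquantile leaves the log ratios as they are, so neither count could change. Other windows gave 16 calls at 2 kb, 7 at 5 kb, 10 at 10 kb, 0 at 20 kb and 25 with 1 kb windows shifted by 500 bases. Leaving out 1 array gave 1 to 10 probes, with 1 without any one wild type array and 10 without rsc1Δ replicate 1, and 1 to 211 windows. No named probe or window turned its direction, and of 143 values of named windows outside these leave-one-out fits, 77 lost the call. The 143 include the values with Aquantile, which could not differ from the main ones. Sizes moved more: with loess, the smallest estimates, windows A to J were at -0.77, -0.65, -0.16, -0.32, -0.54, 0.45, -0.30, -0.23, -0.39 and -0.52, and the probes starting at 202990, 203297 and 310548 at -1.21, -0.996 and -0.51. The width difference of 0.15 was 0.097 with plain subtraction, 0.058 with normexp, -0.0064 with loess and 0.00047 in the deposited table. It ran between 0.13 and 0.16 without 1 array, where without a wild type array the exact test cannot go below p = 0.0714. Called classes numbered 10 with classes from the mean of the 9 arrays, a ranking that uses the compared values, and 0 otherwise. The difference in the lowest class, 0.04, was -0.0050 with plain subtraction, -0.23 with classes from the 9 arrays, -0.012 with 5 classes, 0.27 with one spread, 0.13 in the deposited values and between -0.0094 and 0.12 without 1 array, and that in the highest class, 0.20, was -0.028 with one spread, 0.0050 with loess and 7.1e-06 in the deposited values. No region passed in any setting run. The causes of these changes were not tested.

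The signals were low, with medians above background of 50 to 379 in IP and 57 to 204 in input, which limits the values of dim probes: 27485 of 41480 nuclear probes exceeded background clearly in IP and input on every one of the 9 arrays, and 21 of the 39 in the called windows. The planned counts by gene were not run.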

Other observations

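The rco1Δ arrays, which took no part in the comparison, had their own levels in the 10 called windows. Their ratios spread less, with a median absolute deviation of 0.53 to 0.69, so their levels are given as values only. In window F, where the deletions were higher than wild type, the rco1Δ arrays had -2.92, -3.22 and -2.99. In window C they had -0.18, -0.32 and -0.45, and in window D -0.27, -0.78 and -0.73. In window A they had 0.19, 0.16 and -0.15, and in window B -0.25, 0.19 and -0.08. In window E they had -0.20, 0.20 and -0.36, all below wild type at 0.63 to 0.76. In window J they had 0.04, 0.41 and 0.45, below both the deletions (0.56 to 0.76) and wild type (1.37 to 1.63). Window G had -0.24, -0.28 and -0.44 in rco1Δ, window H 0.10, 0.39 and -0.80, and window I -0.22, -0.01 and -0.0037.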
